A study of Mus musculus with 9 samples.

Results

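The genes of the respiratory chain and the ATP synthase were followed through the brain cells of 9 single-cell libraries from mice. Of 19746 genes in the deposited matrix, 115 were members, 102 encoded in the nucleus and 13 in the mitochondrial genome. Nuclear members were taken by symbol, as every gene named *Nduf*, *Cox* followed by a digit, *Uqcr* or *Atp5*, with *Cyc1*, *Cycs* and the *Sdh* genes, and mitochondrial-genome members as every gene with the prefix mt-. The rule uses gene symbols and no measured value. By role, the nuclear members were 36 subunits of complex I, 4 of complex II, 9 of complex III, 19 of complex IV and 15 of complex V, with cytochrome c (1 gene) and 18 assembly factors. The mitochondrial-genome members were 7 subunits of complex I, 1 of complex III, 3 of complex IV and 2 of complex V.

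Complexes I and II pass electrons from NADH and succinate to ubiquinone, complex III hands them through cytochrome c to complex IV, which reduces oxygen, and complex V, the ATP synthase, makes ATP from the proton gradient that complexes I, III and IV build. Complex II comes wholly from nuclear genes, while the other complexes join nuclear subunits, made in the cytosol and imported, to a few subunits made inside the mitochondrion. In brain, these complexes supply most of the ATP of neurons, and endothelial cells are known for relying largely on glycolysis.

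The libraries were made from dissociated brains without the cerebellum, cleared of myelin, of male C57BL/6J mice. There were 3 groups of 3 libraries: young adult mice of 2 to 3 months, aged mice of 18 to 20 months, and exenatide-treated aged mice of the same age. Exenatide, an agonist of the glucagon-like peptide-1 receptor, was injected into the peritoneum at 5 nmol/kg/day from 17 to 18 months of age for 4 to 5 weeks. The labels name no genetic change in any group and give 3 mice in each library, so a library is taken as a pool and p-values measure the spread between pools. The study's text gives another number of mice for a group, which could not be reconciled here.

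The 9 libraries held 938 to 15019 cells and 2550943 to 21920194 unique molecular identifiers (UMIs, each a captured RNA molecule), 72543 cells in all. Aged library 1 was the smallest. Replicates 1, 2 and 4 of the 3 groups were also the 3 batches that the deposited table of cells names, and 2209 of 70317 distinct cell barcodes were found in more than 1 library. The defining markers fixed for the 16 cell types were highest in the type they name, except *Aqp4*, which was higher in tanycytes (TNC) than in astrocytes (AC). The oligodendrocyte (OLG) clusters of replicate 2 went against their name for 4 of 5 markers: *Mbp*, which encodes a myelin protein, was at 6.2, 0 and 0 CPM (UMIs per 1000000 UMIs of all genes) there, against 1511 to 2353 in the other OLG sums, *Mog*, *Mag* and *Mobp*, also myelin genes, were at 0 in each of these 3 sums, while *Cldn11*, a tight junction gene of myelin, was at 669 to 1306. Values for OLG are therefore given with and without replicate 2.

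The level of a member is thus given in CPM for all cells of a type in a library, with no further scaling. These are 3′ counts, taken near the end of each transcript, which do not grow with gene length. In endothelial cells (ECs), 94 of the 102 nuclear members had a mean level of at least 10 CPM, 73 of at least 100 and 2 of at least 1000, while 8 of the 13 mitochondrial-genome members reached 1000. *mt-Atp6*, a subunit of the proton channel of complex V, and *mt-Co1*, the catalytic subunit of complex IV, led in ECs with 10531 ± 7204 and 9412 ± 5409 (SD, n = 9). The nuclear genes *Cox4i1*, *Cox8a* and *Cox6c*, all subunits of complex IV, were at 1216, 1095 and 942. The highest members of the other classes in ECs were *mt-Nd1* for complex I (4784), *mt-Cytb* for complex III (3850), *Sdhb* for complex II (137), *Cycs*, cytochrome c (158), and the copper chaperone *Cox17* for assembly factors (219). *mt-Nd6*, a subunit of complex I, was the lowest of the mitochondrial genes at 79.2 ± 62.6. Some mitochondrial genes share bases, 43 for *mt-Atp8* and *mt-Atp6* and 7 for *mt-Nd4l* and *mt-Nd4*, so that their counts can be split in error between neighbours.

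Choroid plexus cells (CPC), the epithelium that secretes cerebrospinal fluid, had the highest summed level of nuclear members, and microglia (MG) and haemoglobin-expressing vascular cells (Hb_EC) the lowest. MG and Hb_EC kept this order of means in 3 of the 6 libraries that held both. The 102 nuclear genes together took 79980 ± 7984 CPM in CPC (63409 to 89464, n = 9) and 18530 ± 1899 in MG (16497 to 21098, n = 9). *Ttr*, which encodes the thyroid hormone carrier of the choroid plexus, itself took 234952 to 406838 CPM of the CPC sums, leaving less of the total to every other gene. Of the 102 nuclear members, 68 had their highest mean in CPC, 8 in mature neurons (mNeur), 5 each in ependymal cells (EPC) and TNC, 4 in pericytes (PC) and 1 in ECs. No share of all genes is given for these counts, so they do not show what is particular to the members. The mNeur means include exenatide-treated library 1, which held 11 of these cells.

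Between these ends, the mean summed level of nuclear members was 18702 in Hb_EC, 21630 in macrophages (MAC), 24774 in monocytes (MNC) and 26552 ± 2185 in ECs. Immature neurons (imNeur), neuronal restricted precursors (NRP) and EPC lay at 30738, 31144 and 32412. OLG were at 32724 ± 2309 (n = 7), or 32014 ± 2957 (n = 4) without replicate 2, beside 32968 in oligodendrocyte precursors (OPC). AC, TNC, smooth muscle cells (SMC), PC and mNeur followed at 36245, 36477, 38619, 39653 and 44565. All neighbours in this order overlapped in range, and most differed by less than 1 SD. The exceptions were MAC and MNC, ECs and imNeur (each in the same order in 8 of 8 libraries that held both), and mNeur and CPC (7 of 8). The mNeur value of exenatide-treated library 1 stood apart, 76460 from 11 cells, against 31379 to 46818 in the other 7.

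**Figure D1:**
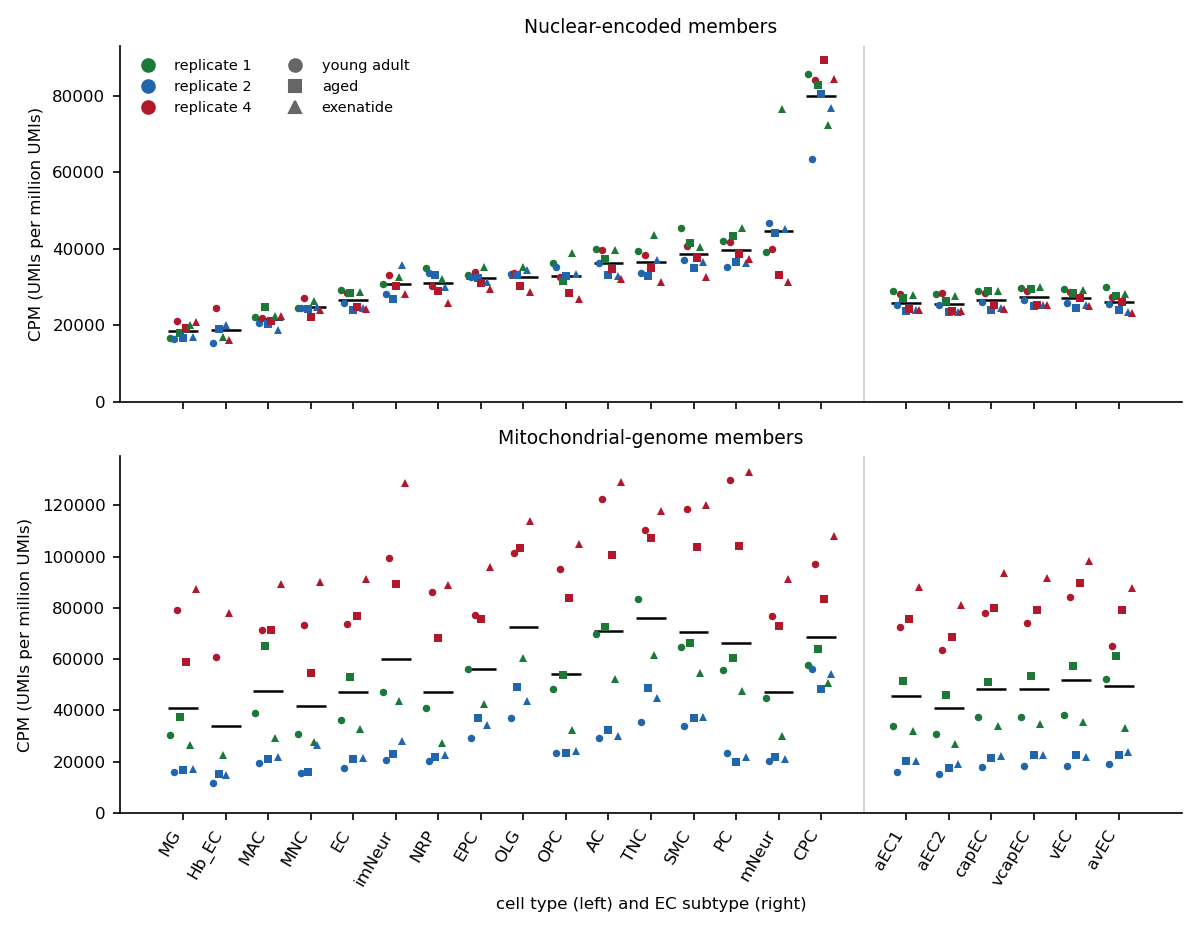
Summed level of the 102 nuclear and 13 mitochondrial-genome members, in CPM, by cell type and EC subtype. Each point is 1 library (colour, replicate number and so batch; shape, group) and each bar the mean; CPC lie highest for the nuclear genes at 63409 to 89464, and the mitochondrial-genome sums of ECs separate by batch.

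The sum of the 13 mitochondrial-genome members followed another order and spread far more widely. By mean it was lowest in Hb_EC (33942) and MG (41056 ± 27467) and highest in TNC (76137 ± 32722, without aged library 1). ECs were at 47056 ± 27669, PC at 66197, CPC at 68816, SMC at 70718 and AC at 70899. All neighbours in this order overlapped in range and differed by less than 1 SD. TNC were not highest in every batch. In replicate 2 their mean was 43051, against 52805 in CPC. In replicate 4 it was 111670, below PC (122276), AC (117393) and SMC (114122). OLG were at 72708 ± 32351, or 94818 ± 23403 without replicate 2. Replicate 2 was the lowest batch in AC too, at a mean of 30514, against 64789 in replicate 1 and 117393 in replicate 4. The OLG mean without it therefore cannot be set beside types that keep this batch. The spread went with the batch: in ECs the young adult, aged and exenatide-treated sums were 36273, 52851 and 32725 in replicate 1, 17376, 21019 and 21375 in replicate 2 and 73880, 76891 and 91114 in replicate 4. The 3 batches did not overlap in these sums, while the 3 groups did. As a description within each library, the order of the types by nuclear and by mitochondrial-genome sum had a Spearman correlation of 0.452 to 0.829 over 8 to 16 types, which share the library and its depth.

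Per nuclear UMI, the cells held 0.855 ± 0.232 mitochondrial-genome UMIs in CPC, the lowest mean of the 16 types. The ratio was 1.78 ± 1.11 in ECs, 2.12 ± 1.23 in MG and 2.28 ± 1.15 in OLG. CPC were not lowest in replicate 2, where their mean of 0.729 was above mNeur (0.462), PC (0.604), NRP (0.668) and OPC (0.699). The OLG ratio was 1.10 to 1.48 in replicate 2 and 1.72 to 3.96 in the other libraries. The authors had removed cells above a mitochondrial share of UMIs and clusters with a high share, which caps the level that any cell could show here.

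Gene by gene in ECs, the batches differed mainly in the mitochondrial genome. The highest of the 3 batch means was a median 4.96 times the lowest for the 13 mitochondrial-genome members, and over 2 times for 12 of them. *mt-Nd6* and *mt-Nd1*, both of complex I, ranged most, by 6.27 and 6.21 times, and *mt-Nd2* least, by 1.94 times. For 89 nuclear members with a mean of at least 20 CPM the median ratio was 1.29, and it exceeded 2 for 2 of them. These were *Sdhd*, a membrane anchor of complex II, with batch means of 72.4, 12.5 and 66.2, and *Uqcrb*, a small subunit of complex III.

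*Uqcrb* was at 219, 219 and 219 CPM in the young adult, aged and exenatide-treated EC libraries of replicate 2. In replicate 1 it was at 529, 619 and 366, and in replicate 4 at 746, 655 and 487. Replicate 2 was thus below every other library, and in the other 2 batches the exenatide-treated library was the lowest. The make-up of the mitochondrial RNA varied as well as its amount: of the mitochondrial-genome UMIs of ECs, *mt-Nd2* took 2.93% to 8.0% and *mt-Atp6* 16.6% to 25.9% over the 9 libraries. On average *mt-Atp6* took 21.0%, *mt-Co1* 20.8%, *mt-Co3* 17.4%, *mt-Nd1* 9.36%, *mt-Co2* 8.80% and *mt-Cytb*, the complex III subunit, 8.41%. What set the spread between batches was not tested.

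Set against ECs within each library, AC and SMC had most nuclear members higher, and MG had more lower than higher. PC had calls in both directions, with more higher than lower. Sums of AC, MG, PC and SMC were compared with ECs by edgeR's quasi-likelihood test with the library as a block, over 11164 genes of which 100 were nuclear members. A gene was called at an adjusted p (FDR, Benjamini-Hochberg) under 0.05 and a natural log fold change (lnFC) over 0.1 in size. The cells had been clustered on these same data, so the calls describe the authors' clusters.

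In AC, 80 nuclear members were called higher and 7 lower, beside 38.6% and 40.9% of all genes. In SMC the counts were 75 and 5, beside 27.8% and 30.9%. MG had 22 called higher and 47 lower, beside 38% and 36.8%, and PC 28 and 17, beside 12.6% and 30.8%. Of the 13 mitochondrial-genome members, 13 were called higher in AC, 12 in SMC, 5 in MG and 1 in PC. The median lnFC over nuclear members was 0.37 in AC, 0.36 in SMC, -0.11 in MG and 0.048 in PC, beside -0.024, -0.032, 0.012 and -0.23 over all genes tested. DESeq2's scaling moved the median of all genes upwards in AC and PC, to 0.18 and -0.011 with nuclear medians of 0.56 and 0.22, and in PC it called 64 members higher and 6 lower, mitochondrial-genome members included. Without the library block, the members called fell from 74 to 45 in MG and from 46 to 30 in PC. Shares of all genes under these other settings are not given here, so these counts show only how calls on members move.

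Complex by complex, AC and SMC were higher for 31 and 29 of 36 complex I subunits, 8 and 8 of 9 complex III subunits, and 12 and 14 of 15 subunits of the ATP synthase. In MG, 20 of 36 complex I subunits were lower and 5 higher, and 2 of the 4 complex II subunits were higher with none lower. In PC the median lnFC was 0.18 over 18 complex IV members and 0.017 over 15 of complex V. The summed complex IV level of PC, 15512 ± 1980 CPM, was 1.91 times that of ECs (8102 ± 875), or 1.38 times without its 2 isoform genes *Ndufa4l2* and *Cox4i2*, with 1.36 times for complex I and 1.24 times for complex V. In CPC, complexes III, IV and V stood at 3.70, 3.32 and 3.18 times the EC level, and complex II at 1.78 times.

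Single members behind these counts were mostly structural subunits. *Ndufc2* and *Ndufa12*, accessory subunits of complex I, were 3.15-fold and 2.99-fold higher in AC than in ECs, and *Sdhc*, an anchor of complex II, was 2.77-fold higher in SMC. *Cox7a2l*, by name a relative of *Cox7a2*, was at 497 ± 82.1 CPM in ECs and 141 ± 15.0 in AC, a lnFC of -1.18 ± 0.061 (SE; FDR 2.51e-28, edgeR). *Ndufa7*, an accessory subunit of complex I, was at 767 ± 104 in ECs against 249 ± 29.8 in MG, with a lnFC of -0.89 ± 0.054 (FDR 2.80e-24, edgeR). Both differences exceeded the spread between libraries.

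*Atp5j*, a stalk subunit of the ATP synthase, was 0.451 times the EC level in MG, and *Ndufaf7*, an assembly factor of complex I, was lower in AC, PC and SMC, at 0.585, 0.416 and 0.428 times. *Ndufa9* (1.76-fold) and *Ndufs8* (1.58-fold) of complex I and *Sdhb* (1.42-fold), the iron-sulfur subunit of complex II, were among the members called higher in MG. They were not the highest there, since the lnFC of MG against ECs reached 3.06 over the nuclear members tested.

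The other pathways are read against the same shares of all genes. Of 14 genes of the tricarboxylic acid cycle, 13 higher and 1 lower in AC, 12 higher and 0 lower in SMC, 5 higher and 2 lower in MG and 2 higher and 2 lower in PC were called. Glycolysis (19 genes) had 14 higher and 5 lower in AC, 10 higher and 5 lower in SMC, 8 higher and 7 lower in MG and 3 higher and 6 lower in PC. The 10 carriers and uncoupling proteins had 8 higher and 2 lower in AC, 8 higher and 2 lower in SMC, 6 higher and 1 lower in MG and 3 higher and 2 lower in PC. The 14 regulators of mitochondrial biogenesis had 6 higher and 4 lower in AC, 4 higher and 3 lower in SMC, 6 higher and 1 lower in MG and 1 higher and 3 lower in PC, and the 15 import proteins 6 higher and 5 lower in AC, 4 higher and 1 lower in SMC, 5 higher and 6 lower in MG and 2 higher and 2 lower in PC. Further assembly factors (25 genes) had 11 higher and 5 lower in AC, 1 higher and 9 lower in SMC, 6 higher and 8 lower in MG and 0 higher and 10 lower in PC. The 77 mitochondrial ribosomal proteins had 42 higher and 10 lower in AC, 21 higher and 10 lower in SMC, 22 higher and 28 lower in MG and 5 higher and 14 lower in PC, and the 77 cytosolic ones 0 higher and 77 lower in AC, 4 higher and 51 lower in SMC, 60 higher and 2 lower in MG and 0 higher and 76 lower in PC. The 14 immediate early and dissociation stress genes had 0 higher and 14 lower in AC, 6 higher and 6 lower in SMC, 8 higher and 5 lower in MG and 0 higher and 13 lower in PC.

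Paired isoform genes showed the widest differences between types. *Ndufa4l2* (chr10:127514967-127517154, plus strand, mm10) is the hypoxia-inducible relative of the complex IV subunit *Ndufa4*, and *Cox4i2* (chr2:152754173-152765037, plus strand) the hypoxia-responsive form of subunit 4, known from lung. In PC, *Ndufa4l2* was at 3136, 2319 and 2762 CPM in the young adult libraries, 3927, 3364 and 2438 in the aged and 3368, 2675 and 2266 in the exenatide-treated ones. Every PC value was above the highest value of ECs (48.1) and of SMC (625), and the 3 groups overlapped. The PC mean of 2917 ± 566 against 34.8 ± 9.85 in ECs was a lnFC of 4.13 ± 0.14, or 62.2-fold (FDR 6.81e-24, edgeR). *Cox4i2* was at 1512 ± 379 in PC, 262 ± 84.0 in SMC and 19.9 ± 6.61 in ECs, 56.8-fold higher in PC than in ECs (lnFC 4.04 ± 0.12, FDR 2.53e-26, edgeR).

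The common partner *Ndufa4* (chr6:11900292-11907497, minus strand) went the other way. It was at 170.3 ± 91.1 in PC, from 68.3 to 304, against 643 ± 78.8 in ECs and 727 ± 123 in SMC, a lnFC of -1.55 ± 0.10 in PC against ECs (FDR 7.27e-22, edgeR). The PC and EC libraries did not overlap. Of the UMIs of the *Ndufa4* pair, *Ndufa4l2* thus took 94.3% ± 3.23 in PC, 34.7% ± 6.5 in SMC, 26.4% ± 9.63 in Hb_EC and 5.26% ± 1.81 in ECs. *Cox4i1* was at 1534 in PC and 1216 in ECs, and *Cox4i2* took 49.4% ± 9.51 of its pair in PC, 14.7% in SMC and 1.65% in ECs.

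Per cell, *Ndufa4l2* was detected in 885 of 1010 PC (87.6%, 95% Wilson interval 85.4% to 89.5%) and *Cox4i2* in 732 (72.5%, 69.6% to 75.1%), at a median depth of 736 UMIs. In AC, at 1054 UMIs, the shares were 1.23% and 2.62%, and in ECs, at 1269 UMIs, 5.25% and 3.07%. The EC level was 1.19% of the PC level for *Ndufa4l2* and 1.32% for *Cox4i2*, beside 0.531% for *Kcnj8*, 0.619% for *Vtn*, 0.667% for *Pdgfrb* and 1.28% for *Abcc9*, which mark PC. *Ndufa4l2* thus lay within the range of these 4 markers and *Cox4i2* just above it, and the part of free RNA from PC in the low EC values was not tested. Intervals here cover counting error only.

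**Figure D2:**
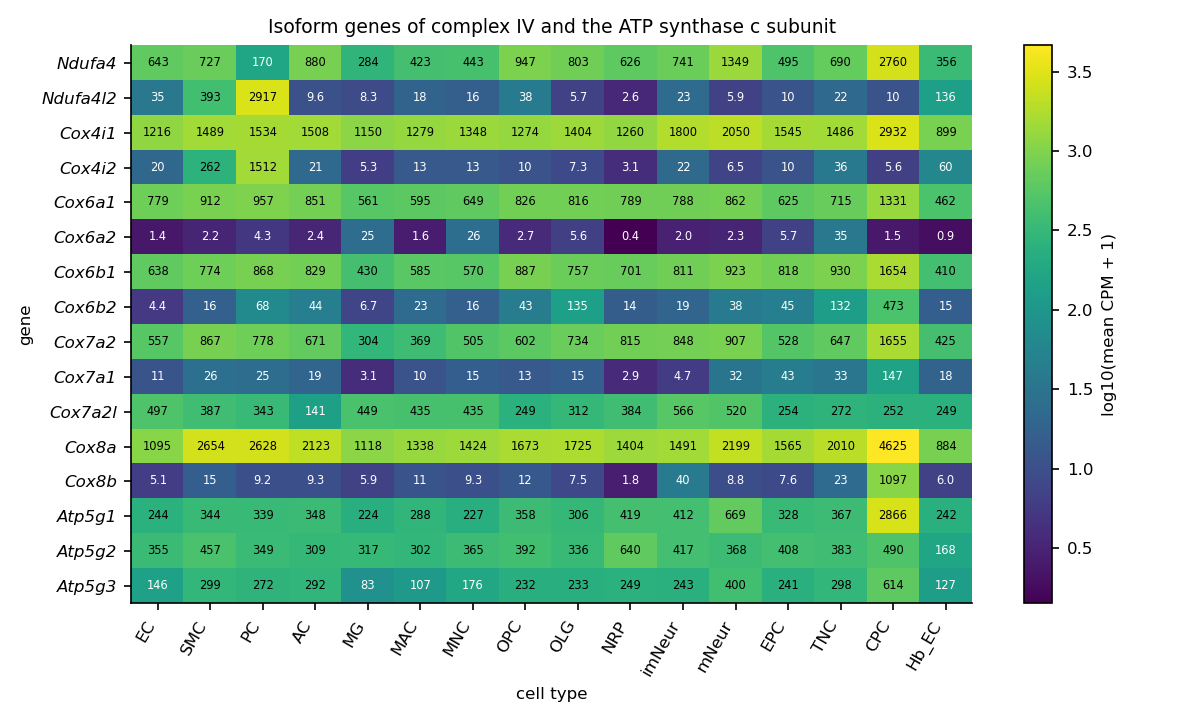
Mean level of 16 isoform genes in 16 cell types; the printed number is the mean over libraries in CPM, and the colour its log10 after adding 1. *Ndufa4l2* (2917) and *Cox4i2* (1512) stand out in PC, *Cox8b* (1097), *Cox6b2* (473) and *Atp5g1* (2866) in CPC.

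CPC held isoforms known from other organs. *Cox8b* (chr7:140898945-140900446, minus strand), the form of subunit 8 of heart and skeletal muscle, was at 1097 ± 416 in CPC, against 5.13 ± 2.39 in ECs. It was detected in 2555 of 4251 CPC (60.1%, 58.6% to 61.6%, median depth 1940 UMIs) and in 0.843% of ECs (1269 UMIs), and it took 18.8% ± 5.76 of the UMIs of the *Cox8a* and *Cox8b* pair in CPC. The EC level was 0.468% of that in CPC, beside 0.565% for *Ttr*, 0.616% for *Folr1* and 0.661% for *Kl*, which mark CPC. *Cox6b2* (chr7:4751792-4753094, minus strand), known from testis, was at 473 ± 68.5 in CPC, 135 ± 50 in OLG (124 ± 55.0 without replicate 2), 132 in TNC, 68.0 in PC and 4.42 in ECs. AC were 10.2-fold and PC 11.8-fold above ECs for it (FDR 4.46e-31 and 9.77e-17, edgeR).

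Within CPC, *Cox8b* was at 691, 459 and 654 CPM in the young adult libraries, 1003, 1636 and 1294 in the aged ones, and 1271, 1328 and 1538 after exenatide. The aged libraries lay above the young adult ones, on 168 UMIs in aged library 1 and 317 to 3420 in the others. The fitted lnFC with age was 0.76 ± 0.19, with an unadjusted p of 0.00141 and an adjusted p of 0.9998 over the 5912 genes tested in CPC (edgeR without a block). This gene was singled out in CPC after its values were seen. In ECs, AC and MG, where *Cox8b* averaged 5.13, 9.27 and 5.86 CPM, the lnFC were 0.53 ± 0.29, 0.51 ± 0.37 and 0.49 ± 0.46. These levels were 0.468%, 0.845% and 0.534% of that in CPC, beside 0.565%, 0.794% and 0.658% for *Ttr*. The part of free RNA from CPC in them was not tested. The partner *Cox8a* was at 4625 ± 447 in CPC.

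*Atp5g1*, *Atp5g2* and *Atp5g3* encode the same mature c subunit of the ATP synthase rotor with different import sequences. *Atp5g1* was at 2866 ± 379.7 in CPC and 244 ± 23.8 in ECs, while *Atp5g2* was at 490.1 and 355, and *Atp5g3* at 614 and 146. *Cox7a1*, the muscle form of subunit 7a, was highest in CPC as well, at 147 ± 31.1 against 10.7 in ECs.

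The promoters of the *Cox8* and *Cox6b* pairs, in which CPC used a restricted form, are shown to compare the common with the restricted gene. Promoters (250 bases before to 50 after the start, RefSeq, GRCm38.p6) were at hand for 81 of the 102 nuclear members, and each motif was searched on both strands, with the share of all 27025 promoters beside it. The NRF1 core CGCANGCG was in 26 (32.1%, beside 8.42%), the ETS core CCGGAAG in 22 (27.2%, beside 9.12%) and the YY1 core AAGATGGC in 11 (13.6%, beside 2.88%). TATAAA was in 8 (9.88%, beside 14.2%) and the E-box CAGCTG in 6 (7.41%, beside 16.1%). In the lines that follow, each 5′ to 3′ on the strand of the gene, capitals mark any of these motifs on either strand. *Cox8a* lies at chr19:7217567-7217866, *Cox8b* at chr7:140900397-140900696, *Cox6b1* at chr7:30626065-30626364 and *Cox6b2* at chr7:4753045-4753344, all on the minus strand.
Cox8a: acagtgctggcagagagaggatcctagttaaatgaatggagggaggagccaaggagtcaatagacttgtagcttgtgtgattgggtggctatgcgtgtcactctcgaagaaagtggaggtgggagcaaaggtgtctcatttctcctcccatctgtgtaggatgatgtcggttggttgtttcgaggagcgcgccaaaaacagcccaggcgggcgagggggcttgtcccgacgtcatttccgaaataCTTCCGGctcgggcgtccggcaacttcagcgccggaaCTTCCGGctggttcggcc
Cox8b: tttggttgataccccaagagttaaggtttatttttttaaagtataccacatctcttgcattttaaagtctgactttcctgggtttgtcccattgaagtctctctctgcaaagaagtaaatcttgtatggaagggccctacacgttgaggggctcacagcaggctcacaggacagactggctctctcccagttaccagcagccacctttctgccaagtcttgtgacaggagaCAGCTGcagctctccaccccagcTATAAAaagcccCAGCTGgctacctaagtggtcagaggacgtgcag
Cox6b1: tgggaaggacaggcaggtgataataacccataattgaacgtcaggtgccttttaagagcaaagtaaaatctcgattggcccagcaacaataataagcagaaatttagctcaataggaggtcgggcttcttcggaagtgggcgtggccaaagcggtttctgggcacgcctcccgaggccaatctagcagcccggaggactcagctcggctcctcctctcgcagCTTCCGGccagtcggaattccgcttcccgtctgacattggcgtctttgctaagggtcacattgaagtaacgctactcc
Cox6b2: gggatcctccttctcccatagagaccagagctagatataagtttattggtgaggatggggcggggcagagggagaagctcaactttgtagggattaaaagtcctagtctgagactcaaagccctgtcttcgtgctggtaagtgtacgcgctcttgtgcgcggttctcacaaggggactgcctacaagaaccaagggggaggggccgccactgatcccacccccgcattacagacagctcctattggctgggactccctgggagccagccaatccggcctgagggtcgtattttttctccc

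The widely used *Cox8a* and *Cox6b1* held 2 and 1 ETS cores and no other motif searched. *Cox8b* held 2 E-boxes and 1 TATAAA, and *Cox6b2* none of the 5 motifs. In the *Cox7a* pair, whose restricted form was also highest in CPC, neither the common *Cox7a2* nor *Cox7a1* held any of the 5 motifs. The difference in ETS cores was thus not seen in every such pair. *Ndufa4l2*, *Cox4i2*, *Cox4i1* and *Cox6a2* were not among the promoters at hand. A match is a run of letters, and binding was not measured.

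Among the 6 EC subtypes the nuclear sums lay close together, and the mitochondrial-genome sums were lowest in the arterial subtypes. The nuclear sum ranged from 25622 ± 2081 in arterial aEC2 through 26671 ± 2180 in capillary capEC to 27322 ± 2192 in capillary-venous vcapEC, with neighbours less than 1 SD apart. The mitochondrial-genome sum was 40974 in aEC2, 45594 in arterial aEC1, 48269 in vcapEC, 48413 in capEC, 49356 in arterial/venous avEC and 51774 in venous vEC. aEC2 were below aEC1, and aEC1 below vcapEC, in 9 of 9 libraries, although these differences were small beside the spread over batches. The other neighbours kept their order in 3 to 5 of 9 libraries.

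Tested against capEC within libraries (7654 genes, of which 93 nuclear members), aEC2 had 19 nuclear members called lower and none higher, beside 9.45% and 8.95% of all genes, and all 13 mitochondrial-genome members lower. aEC1 had 1 nuclear and 2 mitochondrial-genome members lower and none higher (2.33% and 3.07% of all genes). avEC had 10 nuclear and 2 mitochondrial-genome members lower and 2 nuclear members higher (5.7% and 5.24%). These 14 avEC calls became 6 with DESeq2, 1 without the library block, 33 without a low-count filter, and 7 or 8 without exenatide-treated library 1 or 4. No share of all genes is given for these settings. vcapEC had 3 higher and none lower (2.84% and 4.17%), and vEC 1 higher and none lower (1.65% and 1.79%). In aEC2 the median lnFC was -0.23 over mitochondrial-genome and -0.069 over nuclear members, beside -0.010 over all genes. Cytosolic ribosomal proteins were lower in aEC2 for 46 of 77, and their part in these counts was not tested.

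Of the 19 lower nuclear members of aEC2, 10 were among the 36 complex I subunits tested, 4 among 15 of complex IV and 3 among 15 of complex V. *mt-Atp8* was at 235 ± 142 in aEC2 and 322 ± 197 in capEC (lnFC -0.37 ± 0.042, FDR 9.87e-16, edgeR), and *mt-Nd6* had a lnFC of -0.32 ± 0.071. These counts rest on the library block: without it no member was called for aEC2, aEC1 or vcapEC. *Ndufs4* and *Ndufa10*, subunits of complex I, were lower in avEC, with lnFC of -0.28 ± 0.090 and -0.29 ± 0.090 (FDR 0.0259 and 0.0177, edgeR). Both calls were lost with DESeq2 (FDR 0.0930 and 0.0624), without the library block (0.367 and 0.282, edgeR) and without young adult library 2 (0.0748 and 0.0825, edgeR) or exenatide-treated library 4 (0.202 and 0.0752, edgeR). That for *Ndufs4* was also lost without young adult library 1 or 4 or exenatide-treated library 1 (up to 0.105, edgeR).

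*Ndufa8*, an accessory subunit of complex I (chr2:36036326-36049406, minus strand), had the largest called lnFC among the members in the subtypes. It was at 162 ± 27.5 CPM in capEC, 162 ± 36.5 in aEC1, 164 ± 35.1 in aEC2, 228 ± 55.4 in vcapEC, 329.7 ± 68.6 in vEC and 335 ± 111 in avEC. vEC exceeded capEC in 9 of 9 libraries. The fitted folds over capEC were 1.34 in vcapEC, 1.82 in avEC and 2.05 in vEC (FDR 1.95e-09, 4.23e-21 and 7.84e-39, edgeR). The authors assigned these subtypes from genes of arteriovenous zonation, and whether *Ndufa8* was among them is not given in the sources used here.

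**Figure D3:**
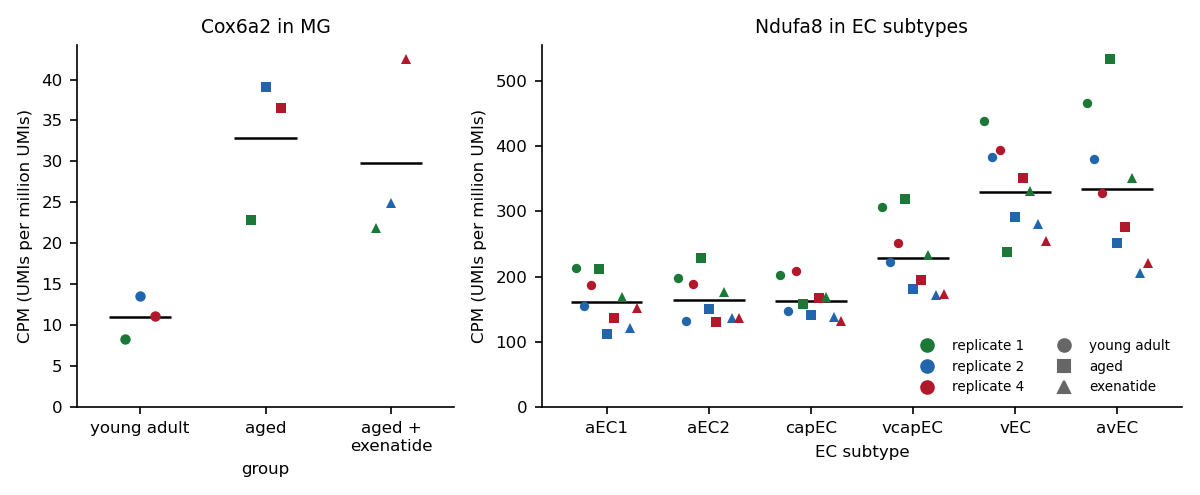
CPM of *Cox6a2* in MG by group and of *Ndufa8* by EC subtype, 1 point a library, with bars at the means. *Cox6a2* lies at 8.26 to 13.6 in the young adult and at 22.8 to 39.0 in the aged libraries; *Ndufa8* averages 162 in capEC and 329.7 in vEC.

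The comparison of aged with young adult mice asks whether the members change in ageing brain cells. By edgeR without a batch term, no member was called in ECs, capEC, MG or AC, beside 0% of all genes in ECs, capEC and MG and 0.0186% in AC (2 genes). At an unadjusted p under 0.05 there was 1 nuclear member in MG and none in ECs, capEC or AC, with 332, 177, 244 and 225 of all genes in ECs, capEC, MG and AC. With the replicate number as a block, 0.814% of genes were called in ECs, 0.19% in capEC, 0.359% in MG and 0.279% in AC, and 1 member among them, *Cox6a2* in MG. DESeq2 without a block called the same gene in MG and no member in ECs, capEC or AC, and its share of all genes called is not given here. On simulated data the fit without the block recovered none of the changed genes. With it, 63.5%, 46.9%, 57.6% and 55.8% of genes changed 2-fold were recovered in ECs, capEC, MG and AC. Of genes changed 1.5-fold, 12.6%, 7.22%, 7.61% and 4.04% were recovered. The absence of calls thus shows neither stability nor change.

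*Cox6a2* (chr7:128205435-128206387, minus strand) is the heart and skeletal muscle form of complex IV subunit 6a. In MG it was at 8.26, 13.6 and 11.1 CPM in the young adult libraries, 22.8, 39.0 and 36.6 in the aged libraries, and 21.9, 25 and 42.5 in the exenatide-treated ones. The aged libraries lay above all young adult ones, and the exenatide-treated libraries overlapped the aged. These levels rest on 38 to 49 UMIs in each young adult library, 15, 72 and 90 in the aged and 50 to 246 in the exenatide-treated. The lnFC with age was 1.13 ± 0.24 (FDR 0.802) by edgeR without a block and 1.11 ± 0.17 (FDR 0.00353) with the replicate block, and DESeq2 without a block gave an FDR of 0.0298.

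With the block, the call for *Cox6a2* held without any 1 of the 9 libraries (FDR 0.00244 to 0.0282, edgeR). A *Cox6a2* UMI was found in 536 of 19494 MG (2.75%, 2.53% to 2.99%, median depth 1310 UMIs), against 0.230% of ECs (1269 UMIs), 2.60% of MNC and 6.69% of TNC. Marker lists fixed for other types moved in the same MG libraries: the 4 MNC markers summed to 337 to 383 CPM in the young adult and 400.5 to 531 in the aged libraries, and the 4 EC markers to 160.0 to 321 and 97.4 to 146, with none of them at 0 throughout. The MNC list includes *Cd52*, which the study also names in microglia, so that sum does not tell the types apart. The part of other cell types in the *Cox6a2* level was not tested. The common form *Cox6a1* was at 561 in MG.

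The summed nuclear level of ECs and AC was lower in aged than in young adult mice in each batch, without single members called. The same order by batch held in capEC, SMC and OPC, though only narrowly in replicate 1 of capEC. In all of these types the aged library of each batch also had more UMIs per cell. The same held in MG and PC, where the aged nuclear sum was higher in replicates 1 and 2 and lower in replicate 4. For ECs the medians were 1894, 1002 and 1269 in the young adult and 2461, 1209 and 1748 in the aged libraries. The part of this depth in the lower sums was not tested. In ECs the summed nuclear level was 29358, 25955 and 28577 in the young adult libraries of replicates 1, 2 and 4, and 28371, 24133 and 24911 in the aged ones. Each aged library was below the young adult library of its batch, while the groups overlapped. The median lnFC was -0.065 over 100 nuclear members and 0.0058 over all 11052 genes, 79 of the 100 were below 0, and within batches the medians were -0.025, -0.071 and -0.13. Of the nuclear members, 33 of 100 were lower in every batch, beside 16.8% of all genes. Of complex I subunits 19 of 36 were lower in every batch, and of complex IV 2 of 17.

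In AC, the nuclear sum was 40044, 36223 and 39803 in the young adult and 37491, 33200 and 34739 in the aged libraries. The aged library was again the lower in each batch. The median lnFC was -0.092 over 100 nuclear members and -0.0039 over 10745 genes, with -0.085, -0.11 and -0.13 within batches. In every batch, 51 of the 100 were lower, beside 16.9% of genes, among them 13 of 18 complex IV and 10 of 15 complex V members. Cytosolic ribosomal proteins moved alongside: 59 of 77 were lower in every batch, and their sum was 45989 to 49881 in the young adult and 37625 to 43739 in the aged AC libraries. The 4 MG markers in AC summed to 134 to 148 and 56.8 to 131, with none at 0 throughout. Their part in the lower values was not tested.

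**Figure D4:**
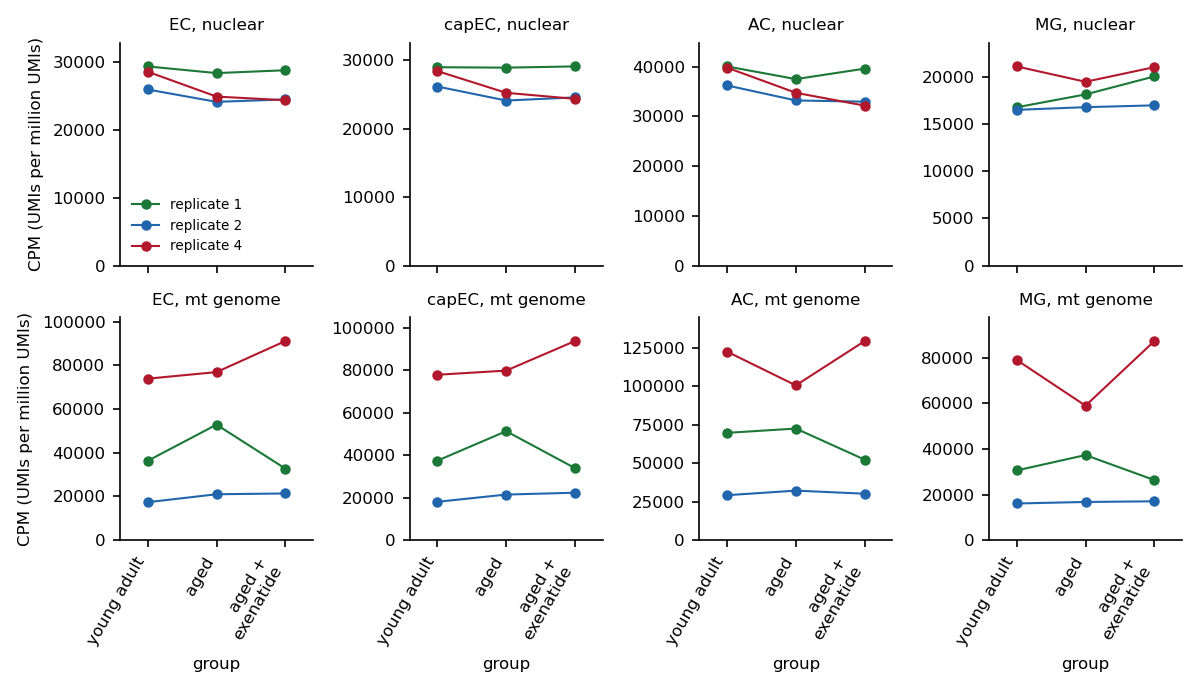
Summed level of the nuclear and mitochondrial-genome members in ECs, capEC, AC and MG by group, in CPM; lines join the libraries of 1 replicate number (batch). For the nuclear genes in ECs, capEC and AC, each aged point is below the young adult point of its batch. In replicate 1 of capEC the gap is small. The mitochondrial-genome sums of ECs separate by batch.

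In capEC the nuclear sum was 29002, 26182 and 28440 in the young adult and 28939, 24129 and 25260 in the aged libraries. The sums of replicate 1 were nearly equal, and aged library 1 held only 44 capEC with 120355 UMIs. The median lnFC was -0.079 over 91 members, and 32 of them were lower in every batch, beside 15.4% of genes. The 4 MG markers summed to 108 to 159 in the young adult and 41.5 to 88.1 in the aged capEC libraries, and their part was not tested. In MG the nuclear sums were 16768, 16497 and 21098 against 18129, 16780 and 19469, higher in 2 batches and lower in replicate 4. The median in MG was -0.0041 over 100 members, and 14 were lower in every batch, beside 15.2%.

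None of the members at the ends of the lnFC order, among those with a mean of at least 100 CPM, was called. In ECs the lowest were *Ndufa7* (-0.19 ± 0.14) and *Ndufv3* (-0.19 ± 0.15), both accessory subunits of complex I, and *Cox14* (-0.16 ± 0.13), an assembly factor of complex IV, and the highest was *Cox7a2l* (0.057 ± 0.17). *Ndufa7* was at 912, 778 and 892 in the young adult EC libraries and at 759, 671 and 686 in the aged ones, without overlap. In capEC, *Ndufs4* (-0.38 ± 0.20), *Ndufs3* (-0.34 ± 0.19) and the copper chaperone *Cox17* (-0.27 ± 0.24) were lowest and *Ndufab1* (0.13 ± 0.22) highest. In AC, *Cox17* (-0.23 ± 0.21), *Atp5e* (-0.23 ± 0.13), the epsilon subunit of complex V, and *Uqcr11* (-0.21 ± 0.12) of complex III were lowest and *Ndufaf4* (0.23 ± 0.17), an assembly factor, highest. In MG, *Uqcr10* of complex III was lowest (-0.14 ± 0.15) and *Ndufa6* of complex I highest (0.22 ± 0.12).

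*Cox6c* and *Cox7b*, complex IV subunits that the study names from these samples and so no independent evidence of a direction, were not called in any of the 4 cell sets with or without the block. In ECs *Cox6c* was at 968, 985 and 1037 in the young adult, 929, 754 and 924 in the aged and 1064, 785 and 1036 in the exenatide-treated libraries. *Cox7b* was at 231, 212 and 206, then 195, 183 and 175, then 214, 195 and 182. For both genes the 3 aged libraries lay below the 3 young adult ones. Each exenatide-treated library lay above the aged library of its batch, while the exenatide-treated and aged groups overlapped. Both comparisons share the aged libraries. Without the block, the lnFC with age were -0.13 ± 0.13 and -0.16 ± 0.13 (FDR 0.9999 for both, edgeR), and with it -0.14 ± 0.085 and -0.16 ± 0.087 (FDR 0.544 and 0.494, edgeR). In capEC, *Cox6c* was at 968, 1054 and 1046 in the young adult and 831, 826 and 935 in the aged libraries, and *Cox7b* at 225, 238 and 180.2 and 224, 184 and 166. Each aged capEC library was below the young adult one of its batch for both genes, and the groups overlapped for *Cox7b* only.

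Across the other types the median age lnFC of nuclear members was -0.14 in OPC, -0.13 in SMC, -0.13 in aEC2, -0.12 in MNC, -0.083 in aEC1, -0.031 in PC and -0.0090 in MAC. The nuclear sums of SMC were 45513, 37148 and 40816 in the young adult and 41461, 35044 and 37714 in the aged libraries. Those of OPC were 36316, 35295 and 32729, then 31590, 32913 and 28481. Aged library 1 held 31 SMC and 16 OPC. In aEC2, 83 of 91 members were below 0, beside 50.4% of genes. CPC lay on the other side, with 0.092 and 12 of 97 below 0, beside 51.9%, and the batches gave -0.045, 0.31 and 0.14.

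**Figure D5:**
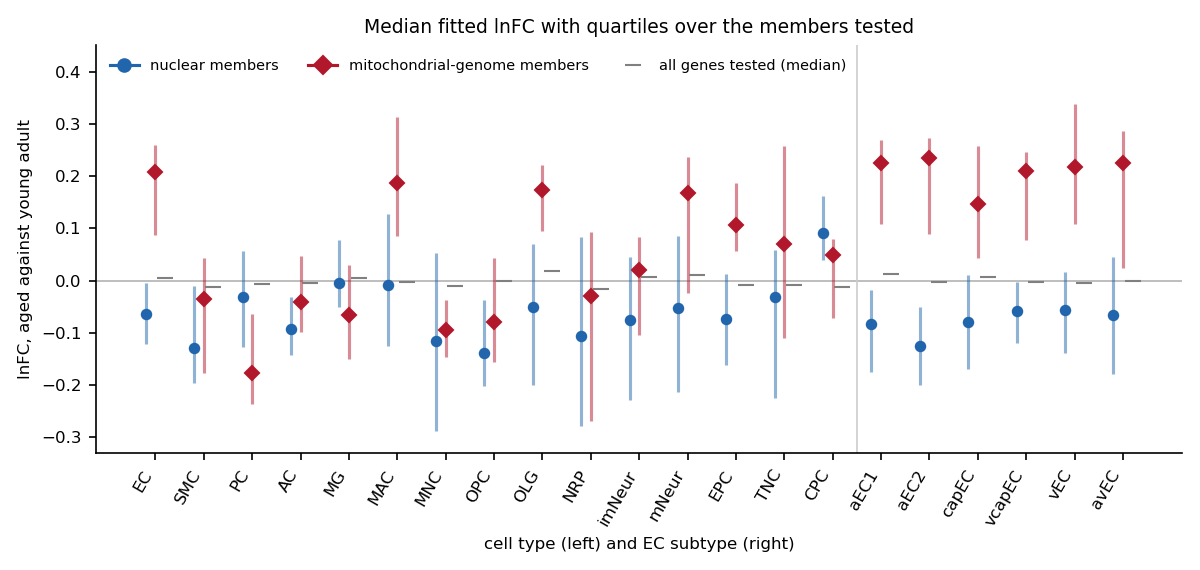
Median lnFC of aged against young adult libraries over the nuclear and mitochondrial-genome members tested in each cell type and EC subtype, with lines from the lower to the upper quartile over members, and the median over all genes tested as grey dashes. Nuclear medians run from -0.14 in OPC to 0.092 in CPC.

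The mitochondrial-genome members had a median age lnFC of 0.21 in ECs, 0.15 in capEC, -0.040 in AC and -0.066 in MG. In ECs the batches gave 0.44, 0.048 and 0.066, and with the replicate block but without aged library 1 the median was -0.0066 in ECs and 0.0072 in capEC. Without the block, the EC median was below 0 without aged library 4 (-0.0875) or young adult library 2 (-0.0599). In ECs, 5 of the 13 were higher in every batch and none lower, beside 16% of all genes, and in capEC 5 and none, beside 13.3%. In MG the batches gave 0.26, -0.087 and -0.24.

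The exenatide comparison asks whether treatment of aged mice moves the members. It shares the aged libraries with the age comparison, so that a deviating aged library enters both with opposite sign. The paper calls the aged group of this comparison untreated, and the labels do not say whether it received vehicle. The drug and the daily injections therefore cannot be told apart here. No gene was called by edgeR in ECs, capEC, MG or AC with or without the block (0% of genes in each). At an unadjusted p under 0.05 without the block there were 56, 66, 59 and 127 genes, 1 of them a nuclear member, in AC. DESeq2 called no member in these 4 cell sets. The summed nuclear level after exenatide was 28793, 24494 and 24372 in ECs, 29120, 24593 and 24370 in capEC, 39597, 32956 and 32153 in AC and 20039, 16972 and 21022 in MG. Against the aged libraries, it was lower in replicate 4 of ECs and capEC and in replicates 2 and 4 of AC, and higher in all 3 batches of MG.

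The median exenatide lnFC of nuclear members was -0.024 in ECs, 0.013 in capEC, -0.012 in AC and 0.046 in MG, beside -0.0028, -0.00015, -0.00012 and -0.0056 over all genes. The mitochondrial-genome medians were -0.045, 0.017, 0.078 and 0.16, and in each of these 4 cell sets the batch of replicate 1 was negative and that of replicate 4 positive. In ECs, *Uqcrb* was lowest (-0.33 ± 0.34) and *Cox8a* (0.13 ± 0.21), *Uqcr10* (0.11 ± 0.14) and *Cox6c* (0.10 ± 0.13) highest. In MG, *Uqcr10* was at 159.9, 236 and 234 in the aged and 294, 294 and 271 in the exenatide-treated libraries, which did not overlap, with a lnFC of 0.31 ± 0.15. *Cox7b* had 0.20 ± 0.13 in MG. Complex IV members had medians of 0.059 in ECs, 0.086 in AC and 0.18 in MG, and cytosolic ribosomal proteins 0.084, 0.12 and 0.10.

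Genes of the pathways around the chain gave no call with age or exenatide in ECs, capEC, MG or AC in either model. With age in ECs, the median lnFC was -0.050 over 14 genes of the tricarboxylic acid cycle, 0.012 over 19 of glycolysis, -0.038 over 10 carriers and uncoupling proteins and -0.076 over 16 import proteins. It was -0.0065 over 13 biogenesis regulators, -0.11 over 27 further assembly factors and -0.10 over 77 mitochondrial ribosomal proteins. The last summed to 5014 to 5742 CPM in the young adult and 4457 to 4915 in the aged EC libraries. Of these 77 genes, 26 were lower in every batch, beside 16.8% of all genes. Dissociation and immediate early genes summed to 10399 to 18574 and 13139 to 23543 in young adult and aged ECs, which overlapped.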

How the data were processed

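The report uses single-cell RNA-seq (10x Chromium 3′ v2) of 9 libraries. The authors aligned reads to mm10 with Cell Ranger 3.0.0 and used Seurat 3.0.1 (per the submitters' processing notes); they removed genes seen in few cells, cells at the ends of the UMI and gene number distributions or with a high mitochondrial share, and clusters of high mitochondrial share or with markers of more than 1 type. The deposited matrix holds the natural log of 1 plus UMIs scaled to a fixed total per cell, made by the authors. The deposited table of cells gives the UMI count of each cell, its number of genes, its mitochondrial fraction, and the cell types and EC subtypes that the authors assigned. No doublet caller was run here.

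The values were turned back into UMI counts, and 58404382 of 58404382 came out whole within 1e-06. Counts were summed per library and cell set (10 cells or more; 11 sums left out), scaled by TMM, filtered with filterByExpr and tested with the edgeR quasi-likelihood test (edgeR 4.0.16, R 4.3.3) over all genes, with Benjamini-Hochberg adjustment. Age and exenatide fits held all 9 libraries without a batch term, and comparisons of cell types or subtypes had the library as a block. Differences within a batch were taken on ln(scaled CPM + 0.5). Alternatives were the replicate block, DESeq2 1.42.0, no low-count filter, totals without mitochondrial-genome genes, levels as a mean over cells, and each library left out. The block with the last or with the changed totals was added after seeing the data. Scripts were tested on simulated data. Replicate numbers equal the deposited batches, and deviations from group means correlated at 0.323 to 0.746 in all 36 same-numbered pairs, so the numbers pair the libraries.

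Genes were named by rule: mitochondrial-genome members, isoform pairs, called members, those at the ends of the lnFC order above 100 CPM (age, exenatide) or 20 (types, subtypes), the highest member of each complex in ECs, *Cox6c* and *Cox7b*, and called genes of the other pathways. *Sdhd*, *Uqcrb* by batch and *Cox8b* by group in CPC were chosen after their values were seen. The members and all lists were chosen with earlier results of these data known.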

Additional observations from a re-analysis of the deposited data

Results flagged for a closer look

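Under exenatide, the median lnFC of nuclear members was 0.0458 in MG and -0.0855 in CPC, 0.131 apart. Within the batches of replicates 1, 2 and 4 the medians were 0.093, 0.0027 and 0.037 in MG, all above 0, and -0.093, -0.012 and -0.12 in CPC, all below 0. Cell types were flagged only where their batch medians all lay on opposite sides of 0. The agreement of signs was therefore set by that rule and is no support for the difference. The difference between the cell types was not tested, and both compare the same libraries.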

How the results depend on the processing

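Pairing by replicate number changed 1 call with age or exenatide: with the replicate block, 1 member was called in MG with age, *Cox6a2* (lnFC 1.11), and the block changed no other call on a member. The same 1 gene was called in MG by DESeq2 (1.14), with the block and mitochondrial-genome genes out of the totals (1.10), and with the block without any 1 library (1 in each). With the block, the count in ECs was 0 to 1 over the libraries left out, the 1 being *mt-Atp8* without young adult library 2.

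Without the library as a block, the members called against ECs fell from 74 to 45 in MG and from 46 to 30 in PC, and those against capEC from 3 to 0 in aEC1, 32 to 0 in aEC2, 14 to 1 in avEC and 3 to 0 in vcapEC. DESeq2 called 70 in PC, 1 in aEC1 and 6 in avEC, and without a low-count filter 33 were called in avEC. With no share of all genes beside them, these counts show only how the calls depend on the setting. The nuclear age median of capEC was -0.127 without that filter, with more low genes in it. Leaving out 1 library gave 0 to 4 in aEC1 and 7 to 17 in avEC, where the lowest counts came without exenatide-treated library 1 (7) or 4 (8).

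Over the libraries left out, the nuclear age median stayed below 0, at -0.129 to -0.0339 for ECs (-0.0986 to -0.0124 with the block), at -0.124 to -0.0627 for capEC (-0.115 to -0.0389) and at -0.125 to -0.0445 for AC (-0.120 to -0.0619). Without the block, the mitochondrial-genome age median was -0.0875 to 0.644 for ECs, -0.202 to 0.605 for capEC, -0.419 to 0.495 in MG and -0.333 to 0.321 in AC, on both sides of 0. With the block it was -0.0066 to 0.274 for ECs, -0.146 to 0.131 in MG and -0.126 to 0.0368 in AC. For capEC it was then 0.0072 to 0.209, above 0 throughout. Its lowest and highest values without the block came without aged and without young adult library 4. Under exenatide the nuclear median was -0.0706 to 0.0632 for ECs and -0.0588 to 0.0814 for capEC, and the mitochondrial-genome median -0.586 to 0.250 for ECs, -0.550 to 0.384 for capEC, -0.476 to 0.499 in MG and -0.445 to 0.363 in AC, likewise on both sides of 0. The cause of these shifts was not tested. Total depth limits these results most in aged library 1, which held 938 cells and 2550943 UMIs.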
